A study of Mus musculus with 43 samples.

Results

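The genes described here are 54 listed developmental transcription factors of the T-box, Gata, Sox and Fox families, 54 of the 20807 protein-coding genes that GENCODE M21 places on the mouse autosomes. They were taken by name and not by a measured value, but earlier results of these data were known when they were chosen. They are 14 T-box genes, 5 Gata genes, 15 Sox genes and 20 Fox genes, and all 54 were found at their mm10 positions. For each gene the share of its body (annotated start to end) inside the peaks of each histone list, the width of the H3K27me3 peak it lies in and any Setdb1 peak within 10 kb of the body were read from 12 deposited lists. The series profiled H3K27me3, H3K9me2, H3K9me3 and Setdb1 by chromatin immunoprecipitation and sequencing (ChIP-seq) in 3 kinds of mouse embryonic fibroblasts (MEFs), cells grown from embryos at E13.5. All were F1 hybrids of 129 or C57 dams with CAST sires, and all carried a retroviral short hairpin. Female cells were Setdb1+/+ Xist∆A/+ with a nonsilencing hairpin, Setdb1-depleted cells were Setdb1+/gt Xist∆A/+ with the hairpin shSetdb1, and male cells were Setdb1+/+ X/Y with the nonsilencing hairpin. The gt allele is a gene trap, and Xist∆A is a silencing-deficient Xist allele on the dam's X, so that the sire's X was the inactive one in every female and Setdb1-depleted cell. Female and Setdb1-depleted cells thus differed in genotype and in hairpin, and these cannot be told apart here. A Setdb1+/gt cell keeps an intact Setdb1 copy on which the hairpin acts, and the Setdb1 left was not measured here. In addition, the header of the Setdb1-depleted Setdb1 list names the nonsilencing hairpin where the sample labels name shSetdb1. The labels were followed, and the hairpin of that list is uncertain.

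Each list was called after the libraries of its group had been pooled, 3 for female, 2 for Setdb1-depleted and 3 for male cells. There is therefore 1 list per target and kind of cells and no replicate error, and no test between the kinds of cells was possible. Values below are given side by side with the same value over all 20807 genes.

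T-box, Gata, Sox and Fox factors bind DNA through, in turn, a T-box domain, Gata-type zinc fingers, an HMG box and a forkhead (winged-helix) domain, and they set up heart, limb, blood, gut, neural and germ layer fates in the embryo. In cells that do not use them, genes of this kind are well-known targets of Polycomb repressive complex 2, which methylates histone H3 at lysine 27 to H3K27me3 and holds the genes silent. H3K9me2 and H3K9me3 are laid down by other enzymes, Setdb1 among them, and are best known from repeats, retroelements and zinc finger gene clusters. Fibroblasts come from mesenchyme, which itself uses some of these factors.

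The H3K27me3 lists of female, Setdb1-depleted and male cells held 8092, 6954 and 6801 peaks, placed on a 5 kb grid without any score, so a peak is a yes-or-no call with no level. The H3K9me2 lists were shorter (1949, 1388 and 1693 peaks in the same order) and the H3K9me3 lists held 6915, 4204 and 5286. The depth of the histone libraries is unknown from the lists. For Setdb1 the file headers gave 57400561, 22386381 and 16482475 immunoprecipitated reads, and 1250, 418 and 3310 peaks. Against the label of fibroblasts, 0 of 18 fibroblast genes and 0 of 9 housekeeping genes were covered by H3K27me3 in any list, whereas all 6 neural genes were covered in every list. Of 5 blood and endothelial genes, 1 was covered in each list (Tal1), and of 4 epithelial genes, 1 (Epcam). No RNA was measured, so these lists check the label through the repressive mark alone.

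Most of the 54 genes lay in H3K27me3 in all kinds of cells. With a gene counted as covered when at least 50% of its body was inside peaks, the female, Setdb1-depleted and male lists covered 39, 39 and 37 genes. Of all 20807 genes the same lists covered 13.8%, 11.9% and 12.8%. The start site itself was inside a peak for 43, 44 and 42 of the 54 genes, against 20.4%, 18.1% and 18.4% of all genes. In all 3 lists at once, 36 of the 54 genes were covered, against 8.65% of all genes, and for 30 genes the whole body was inside peaks in every list. List by list the whole body was inside peaks for 31, 33 and 31 of the 54 genes, against 1930, 1629 and 1804 of all 20807. The bodies were short, with a median of 6.36 kb against 17.6 kb for all genes, and 36 of the 54 were shorter than 10 kb, so that a single peak could hold a whole gene. The share of the body was identical in the 3 lists for 43 genes. Among these were the 30 wholly inside peaks in every list and 8 with no peak over the body in any. The same share over all genes is not given here, so the count does not set these genes apart. Closest to the 50% limit on the inside was Gata6, with 53.4% of its body covered in each list, and closest on the outside were Tbx18 with 39.6% in each list and Sox13 with 34.2% in Setdb1-depleted cells.

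**Figure D1:**
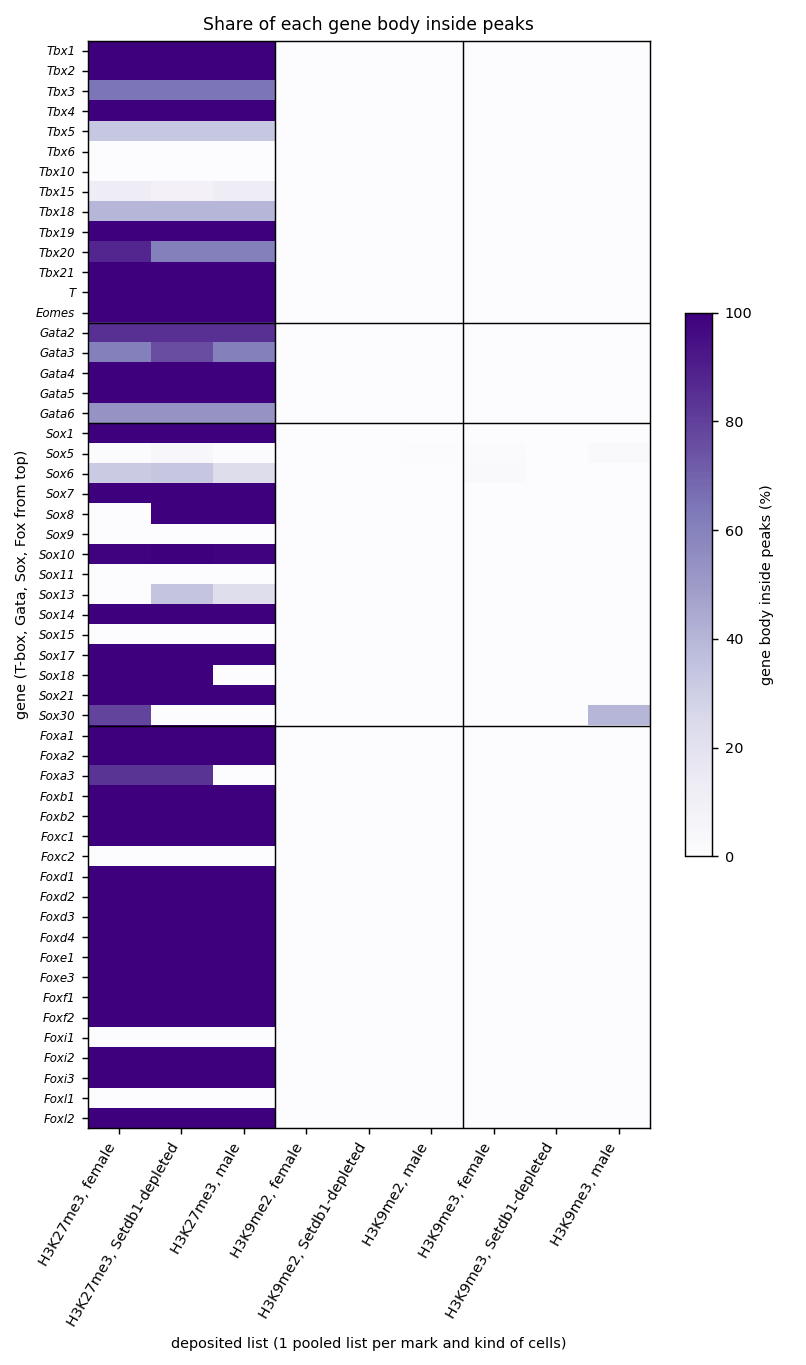
Share of each gene body inside peaks (%, colour scale) for the 54 genes (rows, by family) in the 9 histone lists (columns). The 3 H3K27me3 columns are dark for most genes and nearly alike, and the H3K9me2 and H3K9me3 columns are empty but for Sox5, Sox6 and Sox30.

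Among the T-box genes, 9 of 14 were covered in each list. T (brachyury), which drives mesoderm formation, lay wholly inside a peak of 105 kb in female cells and of 100 kb in male and Setdb1-depleted cells. Eomes, a factor of early mesendoderm, lay in a 55 kb peak with the same edges in every list. The limb and heart factors divided. Tbx4, used in the hindlimb, lay in peaks of 120, 110 and 110 kb in female, Setdb1-depleted and male cells, and its neighbour Tbx2, 44.5 kb away, lay in a separate peak of 30 kb in every list. Tbx5, used in the forelimb and heart, had its start site in a 30 kb peak in each list, but only 33% of its 52.6 kb body was inside. Tbx15, with 12.8% of the body in female and male and 8.45% in Setdb1-depleted cells, and Tbx18, with 39.6% in all, likewise had the start site inside a peak and most of the body outside. Tbx6, a factor of presomitic mesoderm, and Tbx10 had no H3K27me3 peak over the body in any list.

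All 5 Gata genes were covered in every list, each with its start site inside a peak. Gata4, a cardiac and endodermal factor, lay in one of the widest peaks, of 250, 240 and 230 kb. Gata2 and Gata3, which act in blood cell formation, lay in narrower ones: Gata2 in 30, 30 and 25 kb and Gata3 in 40, 45 and 40 kb. Gata3 had 60.8% of its body covered in female and in male cells and 76% in Setdb1-depleted cells. Gata6 lay in a 30 kb peak with the same edges in every list.

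The Sox family was the least covered, with 8, 8 and 7 of 15 genes. Sox1, a neural factor, lay in the widest female peak of the 54 genes, of 285 kb, and in peaks of 265 kb in male and Setdb1-depleted cells, reaching 214.7 kb past its start in the direction of transcription in each list. Sox14, Sox21 and Sox10, which act in neurons and neural crest, and the endothelial factors Sox7 and Sox17 were covered in all lists. No peak lay over Sox9, the master factor of cartilage, over Sox11, which acts in neurons and mesenchyme, or over Sox15 in any list. Around Sox9 the nearest H3K27me3 peak was 62.2, 2.24 and 7.24 kb away in female, Setdb1-depleted and male cells. Sox5 and Sox6, partners of Sox9 in cartilage with long bodies of 953.6 and 567.9 kb, were only partly covered. Of Sox5 1.05%, 4.2% and 1.05% was inside peaks with the start outside, and of Sox6 31.5%, 33.2% and 22.7% with the start inside.

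Among the Fox genes 17, 17 and 16 of 20 were covered, and the median width of their peaks was 100, 65 and 82.5 kb. Foxb1, a factor of the hypothalamus and midbrain, lay in peaks of 270, 265 and 270 kb, and Foxf2 in 185, 165 and 170 kb. Foxi2 lay in 195, 135 and 195 kb. The endoderm factors Foxa1 and Foxa2 lay in peaks of 100, 85 and 105 kb and of 100, 55 and 100 kb. Foxd2 and Foxe3, the latter a lens factor, stand 16.3 kb apart and shared 1 peak in each list, chr4:114795001-114950000 in female cells (155 kb), narrower at 80 kb in male and 75 kb in Setdb1-depleted cells. The uncovered genes were Foxc2, Foxl1 and Foxi1, which had no peak over the body in any list. Foxc2 and Foxl1 are mesenchymal factors that follow Foxf1, a factor of lung and gut mesenchyme, on chromosome 8. Foxf1 lay in a peak of 130 kb in female and male and 125 kb in Setdb1-depleted cells, which ended 15.6 kb past its start at the same step in every list. Foxc2 began 16.2 kb and Foxl1 27.9 kb beyond that edge.

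**Figure D2:**
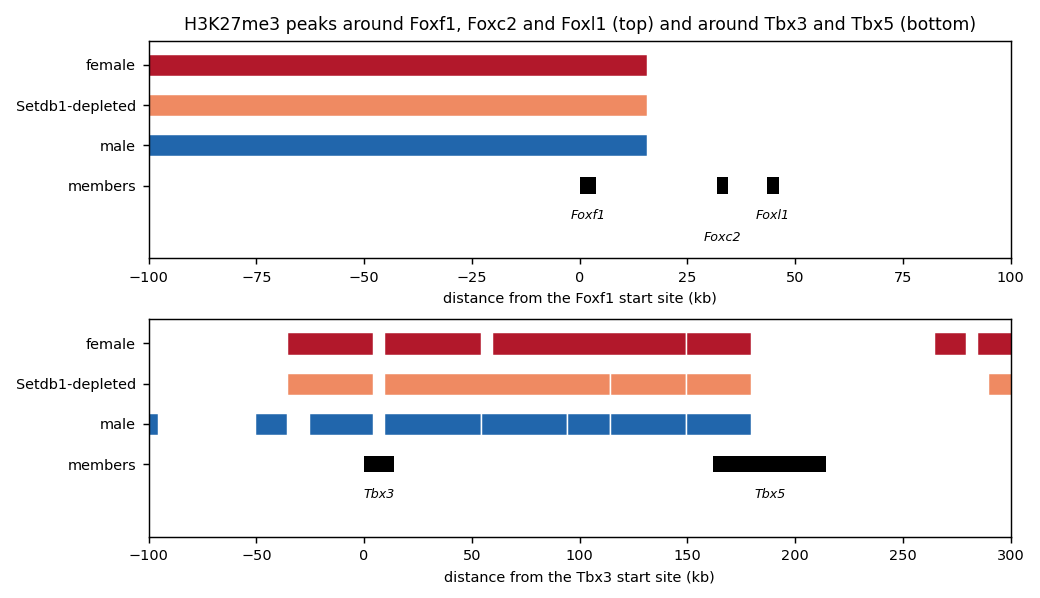
H3K27me3 peaks (bars) in each list within 100 kb of Foxf1, Foxc2 and Foxl1 (top) and of Tbx3 and Tbx5 (bottom), against the distance in kb from the first gene's start, with gene bodies in black and white lines where peaks touch. The peak over Foxf1, which runs on past the left edge, ends at the same place in every list, short of Foxc2 and Foxl1, and most of the stretch between Tbx3 and Tbx5 is in peaks in every list, with a 5 kb gap in female cells and different divisions.

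Covered genes lay in wide peaks. The median width of the peak that overlapped the body most was 65, 55 and 60 kb in female, Setdb1-depleted and male cells, against 50, 40 and 45 kb over all covered genes and 25 kb over all autosomal peaks of each list. Peaks of at least 50 kb held 29, 25 and 29 of the covered genes (74.4%, 64.1% and 78.4%), whereas for all covered genes the shares were 51.2%, 42.9% and 49.7%. Of the covered genes 22, 22 and 21 were the only coding gene in their peak (56.4%, 56.4% and 56.8%), against 33.8%, 35.1% and 34% of all covered genes. Around the start site the peaks reached a median of 28 kb upstream and 29.7 kb downstream in female cells, 26.9 and 28.6 kb in male cells and 23.2 and 22.2 kb in Setdb1-depleted cells. They thus ran about as far before the start as past it, while single genes were lopsided: Foxf1 reached 114.4 kb upstream and 15.6 kb downstream in female cells, and Sox1 70.3 and 214.7 kb.

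**Figure D3:**
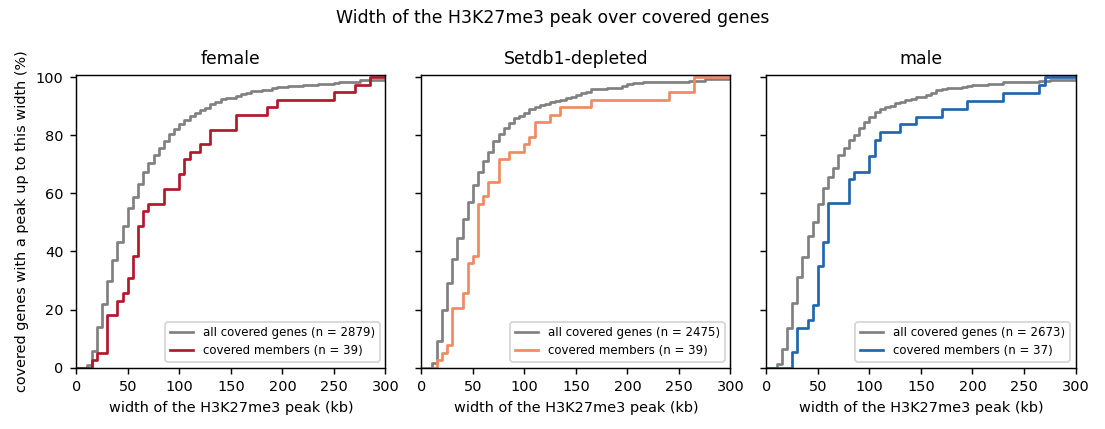
Share of covered genes (%) whose H3K27me3 peak is at most as wide as the value on the x axis (kb), for covered genes of the 4 families (coloured) and all covered genes (grey) in each list. The coloured line runs below the grey one over most widths in each panel, with medians of 65, 55 and 60 kb against 50, 40 and 45 kb.

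The width of a single peak depends on where the caller divided a domain. Between Tbx3 and Tbx5, which start 162 kb apart, the stretch chr5:119680001-119850000 was inside peaks without a gap in male and Setdb1-depleted cells, as 5 and as 3 peaks that touch, and in female cells as 3 peaks with a gap of 5 kb. The peak assigned to Tbx3 was 45, 105 and 45 kb wide for that reason. Around Foxc1, an eye and vessel factor, female cells had a peak of 105 kb and male cells 2 touching peaks of 55 and 50 kb that make up the same width. Widths were therefore also taken as the H3K27me3-covered length within 100 kb on either side of the start, which a division does not change.

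Female and Setdb1-depleted cells were set side by side to describe how the marks at these genes differ between them. The dose of this H3K9 methyltransferase was not measured here, and its part in the differences was not tested. Of the 39 genes covered in female cells, Sox30 alone was not covered in Setdb1-depleted cells, whereas 27.6% of all genes covered in female cells were not. Among all genes the share depended on peak width, 18.9% for those in a female peak of at least 50 kb and 36.7% for those in a narrower one. Of the genes described here, 0 of 29 and 1 of 10 were in those classes. Of the 15 genes not covered in female cells, Sox8 was covered in Setdb1-depleted cells (2.18% of all such genes). In covered length within 100 kb of the start the genes were close to all genes. Of 39, 25 were lower by at least 5 kb in Setdb1-depleted cells (64.1%, against 64.8% of all genes covered in female cells). Another 7 were higher and 7 were within 5 kb, with a median difference of -10 kb in both sets. The sets differed more with touching peaks joined. Of 38 genes covered in both lists, the joined region was narrower in Setdb1-depleted cells for 22 (57.9%, against 47.2% of all such genes). It was wider for 4, against 259 of all 2085 such genes, and had the same edges for 12 (31.6%, against 39.2%). The median width ratio to female cells was 0.91, against 1 over all such genes. The single peak was narrower by most, from female to Setdb1-depleted cells, at Foxd2 and Foxe3 (155 to 75 kb), Gata5 (130 to 55 kb), Foxc1 (105 to 45 kb) and Foxi2 (195 to 135 kb). Within 100 kb of the start the same genes had 141.1 and 120 kb for Foxd2, 129.7 and 110 kb for Gata5, 105 and 70 kb for Foxc1 and 184.7 and 174.7 kb for Foxi2 in female and Setdb1-depleted cells. By that measure the lengths that were lower by most among the 39 genes were at Foxb2 (140 to 75 kb, with a single peak of 85 and 55 kb), Foxa2 (115 to 70 kb) and Sox1 (195.3 to 150.3 kb). The one higher by most among the 39 was at Tbx1 (50 to 95 kb). That rise came from a separate neighbouring peak, while the peak over Tbx1 itself was 50 and 45 kb wide. Sox13, which was not covered in female cells, had 55.6 and 135.6 kb. The Setdb1-depleted list was made from 2 libraries and the female list from 3, and the part of pool size and depth in these differences was not tested.

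**Figure D4:**
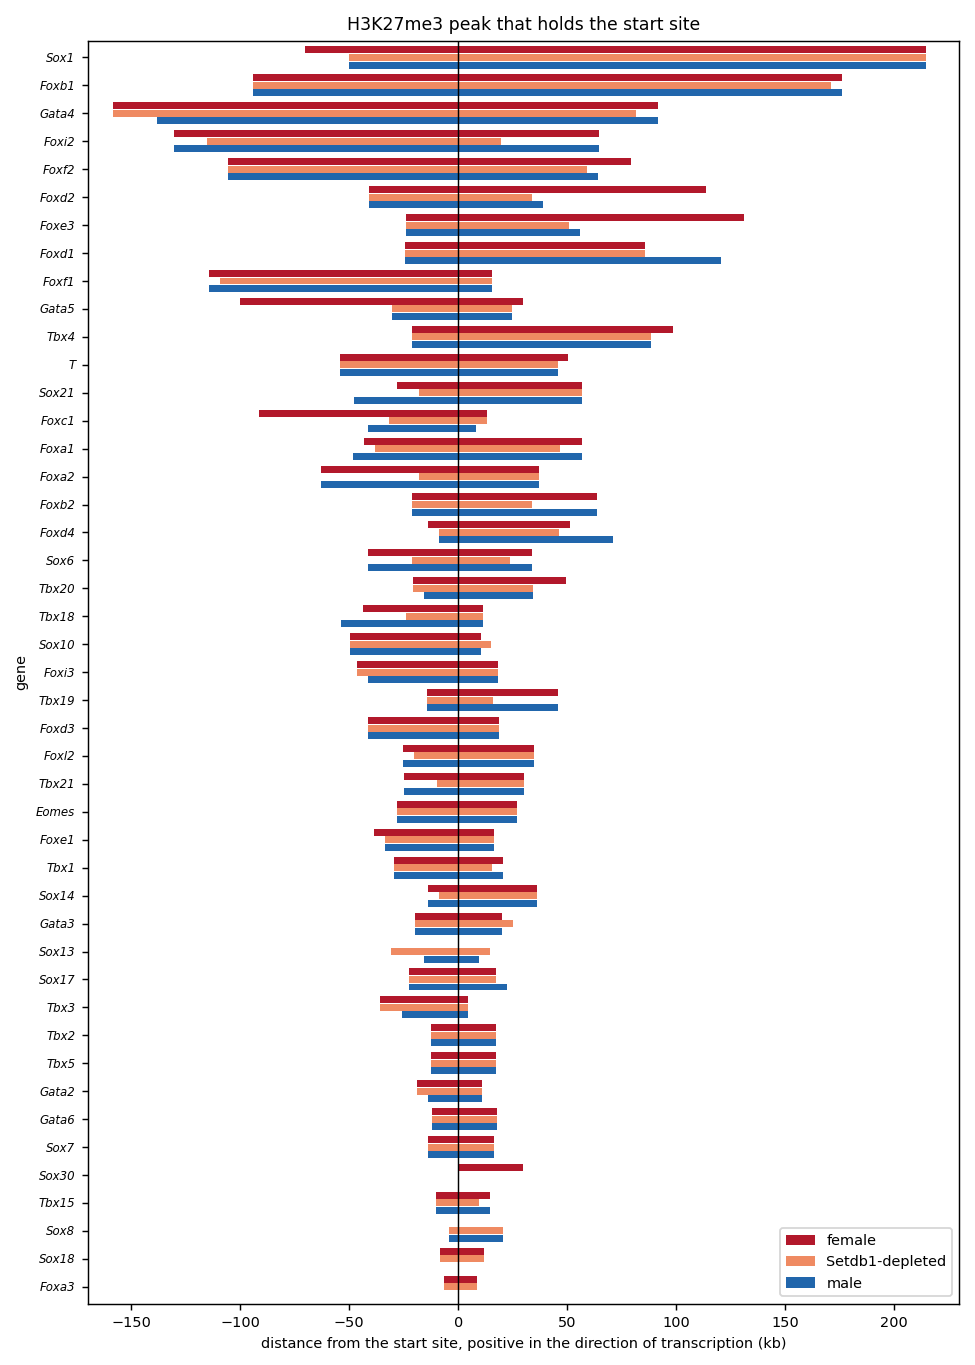
H3K27me3 peak that holds the start site of each gene, in kb from the start and positive in the direction of transcription, for every gene with its start in a peak in at least 1 list, in female (red), Setdb1-depleted (orange) and male (blue) cells, widest first. For 6 genes (Tbx2, Tbx5, Eomes, Gata6, Sox7 and Foxd3) the edges are the same in the 3 lists, and Sox8, Sox13, Sox18, Sox30 and Foxa3 lack a bar in at least 1 list.

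Male cells, which have no inactive X, were the study's comparison for it. On the autosomes they covered 36 of the 39 genes covered in female cells. Sox18, Sox30 and Foxa3 were not covered, and 24.5% of all genes covered in female cells were not, or 16.2% of those in female peaks of at least 50 kb and 33.1% of those in narrower ones. The genes described here had 0 of 29 and 3 of 10 in those classes. Sox8 was covered in male and not in female cells (2.78% of all genes not covered in female cells). The covered length within 100 kb of the start was lower by at least 5 kb than in female cells for 17 of 39 genes and higher for 11, with a median difference of 0 kb, against 55.3% lower and 22.3% higher of all genes, with a median of -5 kb.

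The genes whose 50% cover or start-site call differed between lists lay in peaks of at most 45 kb. Other genes differed in body share without crossing 50%, some of them in wider peaks. Tbx20 had 87.8% of its body covered in female cells, in a 70 kb peak. In Setdb1-depleted and male cells it had 61.1%, in peaks of 55 and 50 kb. Sox18, an endothelial factor, was in a 20 kb peak, chr2:181660001-181680000, in the female and Setdb1-depleted lists and 28.4 kb from the nearest peak in male cells. Foxa3, a liver factor, was in a 15 kb peak, chr7:19015001-19030000, in the female and Setdb1-depleted lists, whereas in male cells no peak lay within 100 kb of its start. Sox8 lay wholly inside a 25 kb peak, chr17:25550001-25575000, in Setdb1-depleted and male cells and 25.9 kb from the nearest peak in female cells. Sox13 had its start in a peak of 25 kb in male and 45 kb in Setdb1-depleted cells, with 22.3% and 34.2% of the body covered, and in female cells a peak ended 2.3 kb from the body. Sox30, which acts in the formation of sperm, lay in a 30 kb peak, chr11:45980001-46010000, in female cells over 78.8% of its body and beginning at the step just before its start. In Setdb1-depleted and male cells the nearest H3K27me3 peak was 277 kb away. The H3 reads in member peaks were close between pools, with a median log2 difference from female of 0.01 in male and -0.03 in Setdb1-depleted cells over the 38 female peaks.

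Neither H3K9 mark covered any of the 54 genes, but either mark covered few of all genes, so a count of 0 among 54 is close to the share over all genes. At 50% of the body, 0 genes were covered by H3K9me2, against 0.971%, 0.673% and 1.12% of all genes in female, Setdb1-depleted and male cells, and 0 by H3K9me3, against 2.85%, 2.53% and 2.88%. Counting any overlap, H3K9me2 touched 0, 0 and 1 genes (2.71%, 1.87% and 2.74% of all genes) and H3K9me3 touched 2, 0 and 2 (7.73%, 5.12% and 7.31%). The genes touched were Sox5, Sox6 and Sox30. In Sox5 the stretch chr6:143880001-143890000 was in an H3K27me3 peak in every list, in an H3K9me3 peak in female and in male cells and in an H3K9me2 peak in male cells. In Sox6 an H3K9me3 peak of 15 kb lay in the body in female cells, beginning 5 kb after an H3K27me3 peak ended. In Sox30 an H3K9me3 peak of 15 kb, chr11:45990001-46005000, lay over 39.8% of the body in male cells, inside the stretch that was an H3K27me3 peak in female cells. The anti-H3K9me3 antibody has some cross-reactivity with H3K27me3 per the study's methods, and its part in these peaks was not tested. The nearest H3K9me3 peak was a median of 333.1, 892.3 and 381.7 kb from the body in female, Setdb1-depleted and male cells, against 214.9, 528.6 and 262.6 kb for all genes. Among the genes not touched, the closest were Tbx15, 5.74 kb away in female and in male cells, and Tbx5, 9.78 kb away in female cells.

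Setdb1 peaks near these genes were about as frequent as near all genes. A peak lay within 10 kb of 1, 1 and 6 genes in female, Setdb1-depleted and male cells (1.85%, 1.85% and 11.1%), against 3.13%, 0.995% and 7.57% of all genes. The gene was Sox5 in the female and Setdb1-depleted lists, and the male list held peaks at Tbx1, Tbx15, Gata4, Sox5, Sox6 and Sox21. There were 11 such peaks, with a pileup (reads over the summit) of 5 to 8 and a -log10 p of 3.23 to 5.95. In the order female, Setdb1-depleted, male, the medians of the whole lists were 7, 8 and 6 for the pileup and 4.99, 5.41 and 5.11 for the -log10 p. The -log10 q of the 11 peaks was 0.8 at most, so none would pass a threshold of 0.05 on q, which 86.8%, 69.6% and 71.9% of all peaks in the lists also missed. With the 418 strongest peaks of each list, the counts of genes were 1, 1 and 0. Within 10 kb of the start site in place of the body, the counts were 0, 0 and 3. Many of the 11 peaks lay in Sox5 and Sox6, with bodies of 953.6 and 567.9 kb, against a median of 17.6 kb for all genes. The part of body length in the counts was not tested. The strongest of the 11 lay in an intron of Sox5 in female cells, with a fold enrichment of 4.5 and a -log10 p of 5.95, higher than 74.8% of the female peaks. The peak in Setdb1-depleted cells lay 143.4 kb from it, summit to summit, in another intron, and none of the 3 male peaks in Sox5 overlapped either. Of the male peaks, that in Tbx1 overlapped an exon, those in Tbx15, Gata4 and Sox6 lay in introns and that at Sox21 lay downstream of the gene. The peaks at Tbx1, Tbx15, Gata4 and Sox21 and 1 of 2 in Sox6 were inside H3K27me3 peaks of the same cells, and the other 6 were inside no histone peak. The sequences of 5 of these peaks, from GRCm38.p6 (mm10), plus strand, are given to show what kind of DNA they hold, with the 21 bases around the summit in capitals (fewer where the peak ends first).
Sox5, female list, chr6:144249167-144249267: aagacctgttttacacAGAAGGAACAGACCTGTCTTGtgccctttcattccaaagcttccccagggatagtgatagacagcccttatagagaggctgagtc
Sox5, Setdb1-depleted list, chr6:144392564-144392759: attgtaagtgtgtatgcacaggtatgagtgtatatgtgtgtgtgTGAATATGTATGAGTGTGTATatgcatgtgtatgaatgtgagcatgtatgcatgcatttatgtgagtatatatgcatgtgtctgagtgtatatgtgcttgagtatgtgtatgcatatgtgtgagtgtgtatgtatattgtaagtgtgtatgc
Tbx1, male list, chr16:18583381-18583498: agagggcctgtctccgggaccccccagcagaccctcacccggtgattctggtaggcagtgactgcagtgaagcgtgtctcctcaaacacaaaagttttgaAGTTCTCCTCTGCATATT
Gata4, male list, chr14:63218735-63218832: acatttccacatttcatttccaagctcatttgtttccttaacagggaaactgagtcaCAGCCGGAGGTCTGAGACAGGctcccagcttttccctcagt
Sox21, male list, chr14:118232268-118232394: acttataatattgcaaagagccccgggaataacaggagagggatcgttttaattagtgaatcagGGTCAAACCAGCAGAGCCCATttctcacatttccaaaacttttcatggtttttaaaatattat
The Sox5 peak of Setdb1-depleted cells is a run of related short repeats, with 86.7% of its bases marked as repeats in the assembly. Among the 11 peaks the share so marked ranged from 0%, in the female Sox5 peak, the Tbx1 peak and others, to 89.4% in a male Sox5 peak, and it was 62.2% in a male Sox6 peak. For each of the 11 peaks the 51 bases centred on the summit occurred 1 time in the assembled chromosomes.

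The promoters of these genes were described by their CpG content, since CpG-rich promoters are a known feature of Polycomb targets. Over the 300 bases from 250 before the start to 50 after it, the observed over expected CpG ratio had a median of 0.63 for the 54 genes and 0.54 for all genes. It was 0.65 for the 43 genes with the start in a female H3K27me3 peak and 0.56 for the 11 with the start outside, whereas over all genes it was 0.51 inside and 0.55 outside. Of the 31 genes with a ratio of at least 0.6, 27 had the start in a female peak (87.1%), and of the 23 below it, 16 (69.6%). Over all genes these shares were 18.7% and 21.9%. The ratio spanned a wide range inside and outside peaks alike. Foxi2, in one of the widest peaks, had the lowest ratio of all 54 genes (0.13), and Sox11, with no peak, had 0.95, as high as Foxl2, which lay in a 60 kb female peak. The uncovered genes Tbx10, Foxi1 and Tbx6 had ratios of 0.14, 0.23 and 0.29.

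**Figure D5:**
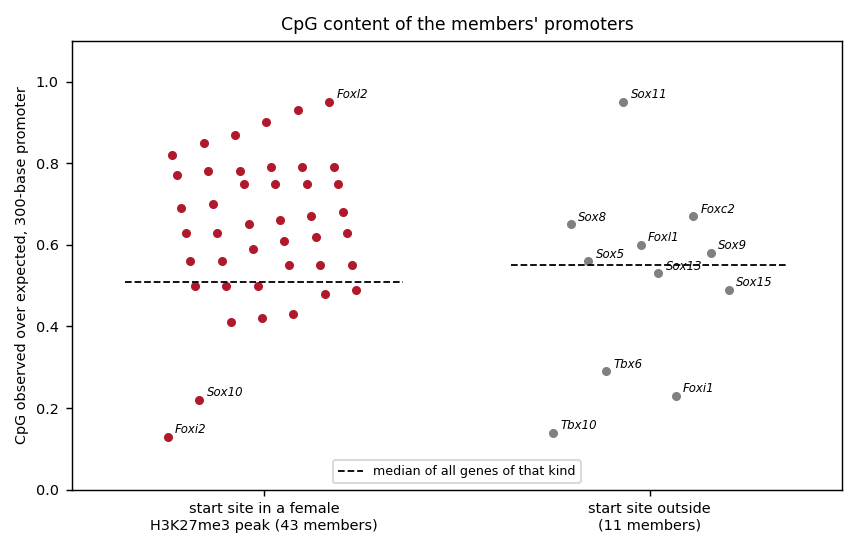
Observed over expected CpG ratio of the 300-base promoter of each of the 54 genes (points), for the 43 with the start in a female H3K27me3 peak and the 11 with the start outside, with the median of all genes of each kind as a dashed line (0.51 and 0.55). The groups overlap, and low ratios occur on both sides, with Foxi2 at 0.13 inside and Tbx10 at 0.14 outside.

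RefSeq promoters of GRCm38.p6 were found for 38 of the 54 genes. The 6 printed here show the range of CpG content beside the state of the gene: Foxd3 was covered in a peak with the same edges in every list, Foxi2 lay in a wide peak despite few CpG, Sox8, Sox30 and Foxa3 differed between lists, and Sox15 was in no peak. Each runs 5′ to 3′ on the strand of the gene, with every CG in capitals. A CG, the same on both strands, is in 94.9% of all promoters of this length, with a median of 12 per promoter.
Foxd3 promoter, chr4:99656049-99656348 (+ strand): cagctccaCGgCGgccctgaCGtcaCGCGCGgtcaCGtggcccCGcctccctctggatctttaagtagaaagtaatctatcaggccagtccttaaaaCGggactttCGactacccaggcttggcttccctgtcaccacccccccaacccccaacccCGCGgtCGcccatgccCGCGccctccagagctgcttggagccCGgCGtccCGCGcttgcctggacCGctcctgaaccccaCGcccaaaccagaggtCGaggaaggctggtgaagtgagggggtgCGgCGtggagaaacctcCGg
Foxi2 promoter, chr7:135410117-135410416 (+ strand): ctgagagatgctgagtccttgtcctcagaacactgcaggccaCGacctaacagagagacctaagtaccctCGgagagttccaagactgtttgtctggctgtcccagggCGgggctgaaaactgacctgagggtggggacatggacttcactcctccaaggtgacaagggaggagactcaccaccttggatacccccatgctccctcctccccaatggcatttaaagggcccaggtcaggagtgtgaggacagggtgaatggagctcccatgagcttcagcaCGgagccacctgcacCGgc
Sox8 promoter, chr17:25570637-25570936 (- strand): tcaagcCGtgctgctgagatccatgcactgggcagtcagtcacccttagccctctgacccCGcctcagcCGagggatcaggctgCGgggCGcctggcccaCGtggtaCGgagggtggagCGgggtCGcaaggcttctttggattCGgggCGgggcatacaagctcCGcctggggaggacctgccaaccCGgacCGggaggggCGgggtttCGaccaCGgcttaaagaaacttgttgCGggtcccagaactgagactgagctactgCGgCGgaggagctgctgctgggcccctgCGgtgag
Sox30 promoter, chr11:45980060-45980359 (+ strand): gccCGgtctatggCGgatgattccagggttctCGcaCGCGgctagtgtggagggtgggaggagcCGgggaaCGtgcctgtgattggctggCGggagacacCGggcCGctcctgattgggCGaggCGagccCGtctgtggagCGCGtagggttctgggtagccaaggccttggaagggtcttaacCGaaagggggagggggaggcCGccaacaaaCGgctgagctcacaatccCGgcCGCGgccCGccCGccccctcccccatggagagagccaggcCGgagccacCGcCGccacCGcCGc
Foxa3 promoter, chr7:19023490-19023789 (- strand): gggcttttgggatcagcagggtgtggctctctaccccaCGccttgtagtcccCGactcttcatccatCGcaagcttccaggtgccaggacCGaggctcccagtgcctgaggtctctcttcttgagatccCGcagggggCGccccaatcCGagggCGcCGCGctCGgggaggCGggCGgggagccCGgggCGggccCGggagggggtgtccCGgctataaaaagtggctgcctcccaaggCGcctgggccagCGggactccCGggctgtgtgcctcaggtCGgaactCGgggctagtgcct
Sox15 promoter, chr11:69654787-69655086 (+ strand): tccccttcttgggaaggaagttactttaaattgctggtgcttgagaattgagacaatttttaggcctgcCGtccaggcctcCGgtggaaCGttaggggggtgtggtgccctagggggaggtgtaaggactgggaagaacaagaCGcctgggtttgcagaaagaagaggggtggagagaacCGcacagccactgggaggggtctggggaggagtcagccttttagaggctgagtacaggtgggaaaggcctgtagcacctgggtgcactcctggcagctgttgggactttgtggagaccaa
These held 25 CG in Foxd3, 5 in Foxi2, 21 in Sox8, 28 in Sox30, 22 in Foxa3 and 5 in Sox15. The RefSeq start lay 277 bases from the GENCODE start for Sox15 and 59 bases for Foxi2, and at most 1 base away for the others. At the GENCODE start Sox15 had 9 CG and a ratio of 0.49, against 0.24 in its printed promoter. Foxi2 had 3 CG and a ratio of 0.13 there, against 0.20 in its printed promoter. Among the printed promoters, those of Sox8, Sox30 and Foxa3, which differed between lists, were thus closer to Foxd3 in CG count than to Foxi2 or Sox15. Sox18, which also differed between lists, had no RefSeq promoter. At its GENCODE start it had 15 CG and a ratio of 0.50. Sox13, whose start-site call differed, had 19 CG and a ratio of 0.53 there. Both ratios were below 0.6, so the printed genes do not stand for all genes that differed between lists.

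Of 26 other autosomal genes of the 4 families, taken by name, 6 were covered by H3K27me3 in every list, against 36 of the 54. Among them were Tbr1 (a cortical neuron factor), Sox2 (neural and pluripotent) and Foxq1. The start site was inside a peak for 8, 8 and 7 of the 26. The 20 not covered include Foxo1, Foxo3, Foxk1, Foxk2, Foxm1 and Foxj2, and also Foxn1, Foxj1, Foxh1, Foxr1 and Foxs1. Foxo1 nevertheless had its start inside a peak in female and Setdb1-depleted cells, with 13.7% and 7.85% of the body covered. None of the 26 was covered by H3K9me2 or H3K9me3 in any list.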

How the data were processed

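The series holds ChIP-seq of MEFs in 43 samples, grouped by the labels. The authors aligned reads with Bowtie2 to mm10 with strain variants masked and pooled the libraries of each group. Per the study's methods broad histone peaks came from Seqmonk's MACS-like caller, with H3 as control, and the deposited lists give positions and, in log2 units scaled for depth by the authors, the H3 reads of each pool in each peak. For Setdb1 the authors ran MACS2 2.1.0.20140616 with the down-sample option against whole cell extract at a p cutoff of 0.001 per the file headers, and 18134299, 14405821 and 12320583 reads entered the female, Setdb1-depleted and male calls. The deposited Setdb1 lists give a pileup signal (coverage), a fold enrichment (ratio to local background) and -log10 p and q. They hold 0 columns of single samples.

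Here Python 3.11.15 counted overlaps of these lists with GENCODE M21 genes, 50% of the body counting as covered and 10 kb as near. The overlap code was tested on simulated data. No p-value was computed. All 54 genes are accounted for. Given with values were genes whose cover differs between lists or is absent in all, genes in the 6 widest female domains, genes sharing a domain, genes with an H3K9me2 or H3K9me3 peak, and genes with a Setdb1 peak near. Genes with other values were chosen to show their family. Genes on X and Y were left out. The members and lists were chosen with earlier results of these data known. The extraction protocol in the labels speaks of NSCs, the titles of MEFs, and the titles were followed.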

Additional observations from a re-analysis of the deposited data

How the results depend on the processing

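No paired analysis was possible because every list pools the libraries of its group, and for the same reason no replicate could be left out. Of 121 alternative values over 19 results, 97 were within 1.5 times the reported count or within 5 kb of the reported width, and 24 were not. The H3K27me3 counts of covered genes (32 to 45 over 7 alternatives and 3 lists) stayed within 1.5 times. Counting any overlap gave 1 gene for H3K9me2 in male cells and 2 each for H3K9me3 in female and male cells, in place of 0. At 90% of the body, 0 genes covered in female cells were uncovered in Setdb1-depleted cells and 1 (Sox18) in male cells, since Sox30 and Foxa3 were covered over less than 90%. Counted by start site or by any overlap, Sox13 joined Sox8 as covered in Setdb1-depleted and in male but not in female cells (2 genes each), and with equal numbers of the widest peaks Foxa3 did so in Setdb1-depleted cells (2 genes), where ties at 15 kb in the female list decide. The median width of 65, 55 and 60 kb became 95, 75 and 100 kb with peaks at most 10 kb apart merged, and 80 kb in male cells with touching peaks joined. Measured as covered kb within 100 kb of the start it was 105, 95 and 100 kb, over the genes covered in each list. These last settings, joining and covered kb, were chosen after seeing the data. A Setdb1 peak lay within 50 kb of 5 genes in female cells, and within 10 kb of the start site of 0, 0 and 3 genes. At a -log10 p of at least 5 the counts were 1, 0 and 0, and with lists of equal length 1, 1 and 0. A list of few reads or few libraries can miss a weak peak, so an absent peak is a call that was not made, not a measured absence.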
